A study of Mus musculus with 4 samples.

Results

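The genes described here border the 4 Hox clusters of the mouse: Skap2 and Evx1 flank HoxA, which ends in Hoxa13, Mtx2 and Evx2 flank HoxD, which ends in Hoxd13, Ttll6 and Skap1 flank HoxB, and Calcoco1 and Smug1 lie farther out on either side of HoxC. These 10 genes were taken by name from the 21883 protein-coding genes of the GRCm38 (mm10) annotation. A peak was assigned to a gene when it overlapped the gene body or 5 kb on either side. The gene windows held 121 and 127 of the 213705 and 216795 peaks of the wt libraries, and 113 and 107 of the 191704 and 200214 peaks of the Hox-/- libraries.

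The peaks come from ATAC-seq, in which a transposase cuts and tags accessible DNA, on mouse embryonic stem (mES) cells. There were 2 wt libraries and 2 Hox-/- libraries. The series title describes the mutant cells as devoid of Hox function. Both genotypes were grown in DMEM with 10% serum, 100 ng/ml LIF, 3 µM of the GSK-3 inhibitor CHIR99021 and 1 µM of the MEK1/2 inhibitor PD0325901. Each library was made from 50000 cells with 30 min of tagmentation and 12 PCR cycles. The labels do not say how the Hox genes were removed, whether Hox-/- is a single clone, or whether the libraries of a genotype came from separate cultures, so differences between libraries of a genotype may be technical spread.

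Hox genes encode homeodomain transcription factors that pattern the body axis, and they lie in clusters whose order follows the order of their expression along the embryo. The highest-numbered paralogs end each cluster on its 5' side. Evx1 and Evx2, homeobox genes related to even-skipped of Drosophila, flank HoxA and HoxD on that side. Apart from Evx1, Evx2, Hoxa13 and Hoxd13, the bordering genes are not homeobox genes, and several are expressed in many tissues. In embryonic stem cells the Hox clusters are held under Polycomb repression.

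The sequences before 4 start sites are shown because they stand for the range of start-site peaks among these genes, from the strongest (Calcoco1) through Hoxa13 and Hoxd13, both at the edge of a stretch emptied of Hox-/- peaks, to Evx2, which had no peak at this start in any library. Start sites are those of the RefSeq promoter table, which gives 1 per gene. At Evx2, Ttll6 and Smug1 this start lies inside the annotated gene span, so another start may lie at the span's end. Each is the 250 bases upstream of the RefSeq start on GRCm38.p6, 5′ to 3′ on the gene's strand. Capitals mark GGGCGG (the Sp1 box) and CCAAT (the NF-Y box) on either strand.
Calcoco1: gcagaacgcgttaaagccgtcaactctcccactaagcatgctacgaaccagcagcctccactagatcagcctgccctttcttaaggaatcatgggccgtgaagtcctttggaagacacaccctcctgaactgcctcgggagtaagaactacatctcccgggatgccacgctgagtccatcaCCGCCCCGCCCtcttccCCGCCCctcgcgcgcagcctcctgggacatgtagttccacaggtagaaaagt
Hoxa13: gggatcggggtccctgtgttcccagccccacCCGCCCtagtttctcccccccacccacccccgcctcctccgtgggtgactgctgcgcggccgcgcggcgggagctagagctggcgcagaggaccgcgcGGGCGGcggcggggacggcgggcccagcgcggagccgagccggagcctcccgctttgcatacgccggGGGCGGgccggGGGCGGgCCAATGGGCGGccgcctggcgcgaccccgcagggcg
Hoxd13: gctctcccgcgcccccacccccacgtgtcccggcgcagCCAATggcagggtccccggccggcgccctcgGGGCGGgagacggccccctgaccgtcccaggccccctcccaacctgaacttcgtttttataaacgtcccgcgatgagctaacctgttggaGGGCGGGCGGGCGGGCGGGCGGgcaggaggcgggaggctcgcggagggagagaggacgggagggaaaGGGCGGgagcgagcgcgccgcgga
Evx2: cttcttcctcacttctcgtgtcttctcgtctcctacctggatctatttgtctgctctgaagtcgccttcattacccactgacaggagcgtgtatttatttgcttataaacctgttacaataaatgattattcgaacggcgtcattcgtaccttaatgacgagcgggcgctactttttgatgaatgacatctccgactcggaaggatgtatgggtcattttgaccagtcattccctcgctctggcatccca

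The windows are chr15:102722179-102722428 (minus strand) for Calcoco1, chr6:52260881-52261130 (minus strand) for Hoxa13, chr2:74667975-74668224 (plus strand) for Hoxd13 and chr2:74659558-74659807 (minus strand) for Evx2. Hoxa13 held 35 CG dinucleotides, a number reached by 3.79% of 21262 promoters. Hoxd13 held 31, a number reached by 6.67% of promoters. Calcoco1 and Evx2 each held 14 (39.5% of promoters had as many), against a median of 10.0. GGGCGG occurred 7 times at Hoxd13, counting overlapping copies in its tandem run, 5 times at Hoxa13, 3 times at Calcoco1 and not at Evx2. It is present in 42.6% of all promoters of this length. CCAAT, present in 35.4% of promoters, occurred once each at Hoxa13, where it abuts a GGGCGG, and at Hoxd13. Of the other letters searched on both strands, AGGGGGC (CTCF core letters) occurred at Hoxd13 and Ttll6 and in 11.6% of promoters, and TATAAA occurred at Hoxd13, Ttll6 and Evx2 and in 11.6%. ATGCAAAT (octamer) occurred at Evx1 and in 1.58% of promoters. TAATTA (4.30% of promoters), GCATGCGC (2.93%) and AAGATGGCG (0.720%) occurred at none of the 9 members matched to the promoter table.

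The lists are summaries of peaks, with no read counts, so the depth is unknown. The Hox-/- lists were 88.4% and 92.4% as long as the longest list, the other wt list 98.6%, and all lists ended at a −log10 q of 1.30. Each list held a peak within 1 kb of an end of 10 of 10 stem cell marker genes, 6 of 7 fibroblast, 3 of 5 primitive endoderm and 5 of 5 early lineage marker genes. Among the 50000 strongest peaks these numbers were 9 of 10 for stem cell and 2 of 7 for fibroblast markers in every library. They were 1, 2, 1 and 0 of 5 for primitive endoderm and 1, 2, 1 and 3 of 5 for early lineages, in the order wt 1, wt 2, Hox-/- 1 and Hox-/- 2. No peak was listed at Gata4, Dab2 or Col3a1, and an open region near a marker gene is not a measure of its expression.

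In each cluster the longest interval without any Hox-/- peak was taken as the emptied stretch. It measured 105 kb at HoxA (chr6:52154482-52259891), 184 kb at HoxB (chr11:96190714-96374732), 120 kb at HoxC (chr15:102921063-103041017) and 109 kb at HoxD (chr2:74668831-74777660). In the wt libraries 39 and 41 peaks overlapped the HoxA stretch, 57 and 59 that of HoxB, 46 and 42 that of HoxC, and 40 and 46 that of HoxD. Computed from each Hox-/- library alone, 6 of the 8 edges differed by 2 to 27 bp. The other edges differed by 127 bp at the high end of HoxC and by 792 bp at the high end of HoxA, where Hoxa13 lies.

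Only Hoxa13 and Hoxd13 crossed an edge. Hoxa13 (chr6:52258853-52260880) had 1039 of its 2028 bp inside the stretch (51.2%), with its start site outside. Hoxd13 (chr2:74668225-74671603) had 2773 of 3379 bp inside (82.1%), again with its start site outside and 606 bp remaining beyond the edge. The other 8 genes lay wholly outside, at 7.31 kb (Evx2), 24.5 kb (Ttll6), 48.2 kb (Mtx2), 53.6 kb (Evx1), 89.8 kb (Skap1), 112 kb (Smug1), 142 kb (Skap2) and 199 kb (Calcoco1) from the nearest edge. Between those genes and the stretches, every region called in both wt libraries was also overlapped by a Hox-/- peak at 7 of the 8 genes. These were 7 of 7 regions on the Evx1 gap, 20 of 20 for Skap2, 4 of 4 for Mtx2, 5 of 5 for Ttll6, 17 of 17 for Skap1, 21 of 21 for Calcoco1 and 15 of 15 for Smug1. Genome-wide, 94.6% of 146769 regions called in both wt libraries had a Hox-/- peak, so full tallies of this size are near the background. Between Evx2 and the HoxD stretch it was 1 of 2, and the overlapped region is the one whose Hox-/- peak sets the edge, at the start of Hoxd13. Each of these gaps runs up to an edge that a Hox-/- peak sets, so a region at the edge counts as overlapped by definition.

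**Figure D1:**
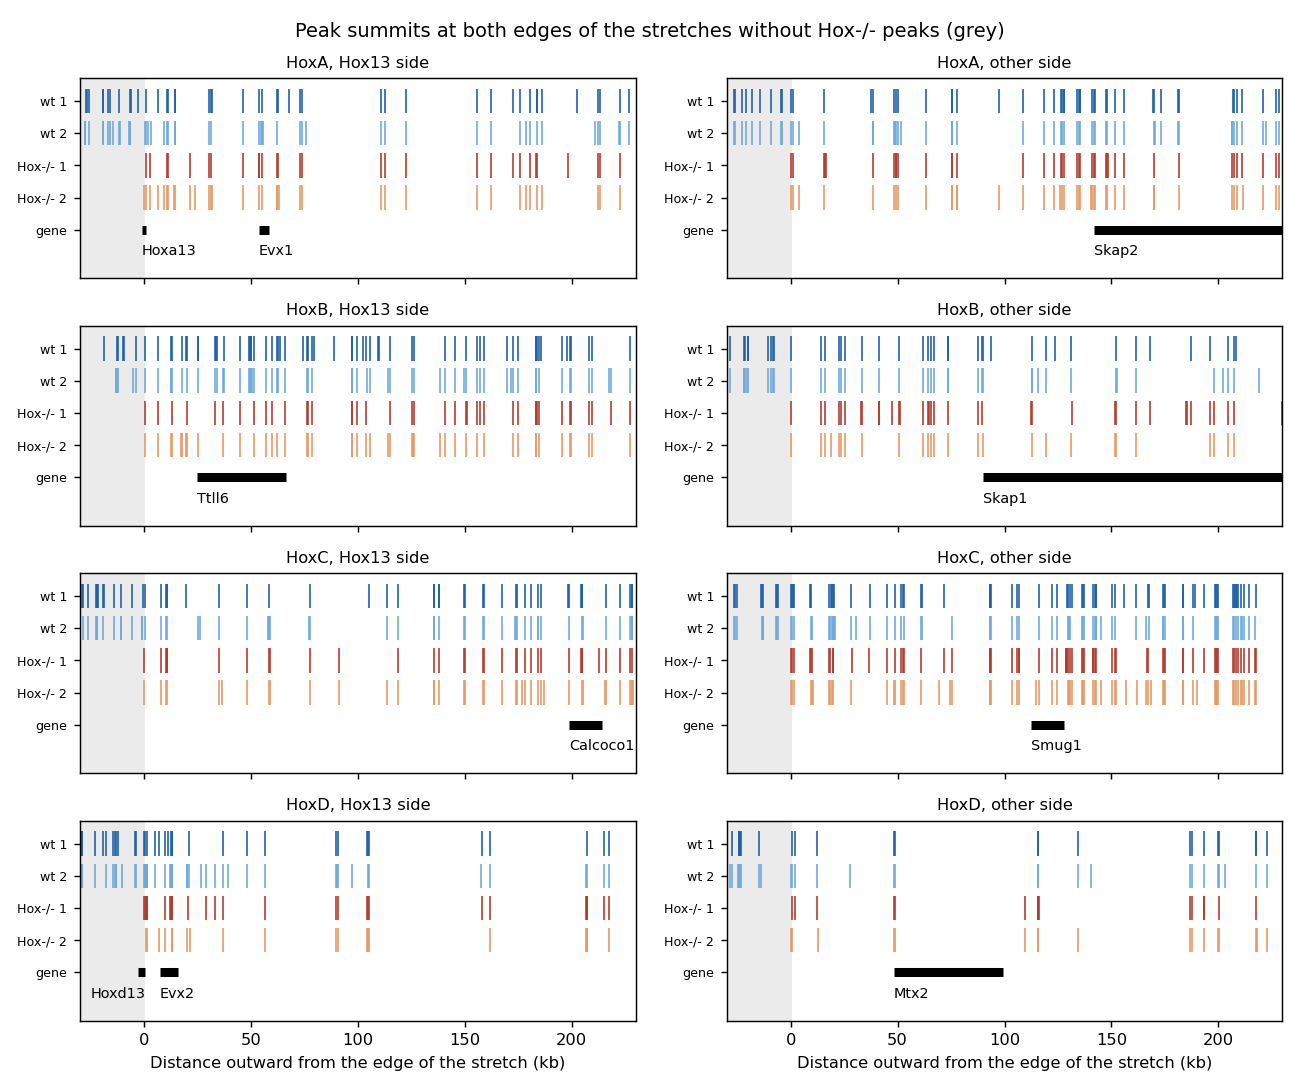
Peak summits at both edges of each emptied stretch, by distance outward from the edge in kb, with 1 row of ticks for each library and the bordering genes as black bars. Summits of Hox-/- libraries (red and orange) stop at the grey area, by the definition of the stretch, while wt summits (blue) go on inside it, and Hoxa13 and Hoxd13 are the bordering genes that cross the edge.

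The start site of Hoxd13, a homeobox gene of the most 5' group that acts in the digits and the genital tract, stood out by its rank. In both Hox-/- libraries the peak at the start was nearer the top of the list than in both wt libraries. Peaks were ranked within each library by −log10 p, with rank 1 the strongest, and the rank is given as a percent of the list. The strongest line of the interval that overlaps the window from 250 bp before to 50 bp after the start stood at 62.4% and 52.4% of the wt lists, and at 25.7% and 21.3% of the Hox-/- lists. In wt replicate 1 that line has its summit at -895 bp, outside the window, and its summit at -24 bp stood at 81.6%. The groups did not overlap, and the shift was 1.29 on the log2 scale of percent ranks. Of 12835 promoters with a peak in all 4 libraries, 10.8% had a start peak nearer the top in both Hox-/- libraries, the median shift was -0.12, and 57 promoters including Hoxd13 had a shift as large. Hoxd13 was also 1 of 78 promoters of 21262 (0.367%) that reached the 100000 strongest peaks in both Hox-/- libraries and in neither wt library.

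The start of Hoxd13 lay in a broad interval in all libraries. It ran from 74667195 to 74668983 and from 74667198 to 74668979 in wt, and from 74667225 to 74668823 and from 74667225 to 74668830 in Hox-/-, so the wt intervals reached 153 and 149 bp past the edge that the Hox-/- peaks define. Within the interval of each Hox-/- library 1 summit dominated. In Hox-/- replicate 1 a summit at -167 bp from the start had a fold over background of 7.30, and the other summits of that interval had 2.62 to 3.56. In Hox-/- replicate 2 a summit at -203 bp had 8.61, and the other had 3.47. Both summits lie within the Hoxd13 sequence printed above. The wt intervals had several summits of like height, with folds of 2.17 to 3.58 in replicate 1 and of 1.80 to 3.64 in replicate 2. Folds are the authors' peak caller's own values and are compared here only within a list. The interval lies directly at the edge of the emptied stretch. The labels do not say whether the stretches are deletions, and the part of this position in the rank was not tested.

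The other peaks of the Hoxd13 window differed from the start-site peak. The Hoxd13 window held 6 and 9 peaks in wt and 5 and 2 in Hox-/-. Of these, 2 in each wt library lie inside the stretch, which has no Hox-/- peaks by definition. Outside it the numbers were 4 and 7 against 5 and 2, and they overlapped. Of its 3 regions called in both wt libraries, 1 was overlapped by a Hox-/- peak, the interval at the start. The wt interval at chr2:74672532-74673324, at ranks 51483 and 63572, is the one inside the stretch and holds both of those peaks. The other, at chr2:74663633-74663858, lies outside the stretch and was also absent from both Hox-/- lists. It is at ranks 133558 and 123452 of the wt lists and falls in the Evx2 window as well. The best peak of the whole Hoxd13 window was at 24.1% and 29.3% of the wt lists and at 25.7% and 21.3% of the Hox-/- lists, which overlap, and in wt this best peak was the one inside the stretch. Among the 50000 strongest peaks of each library the window held 0 and 0 in wt and 1 and 1 in Hox-/-, the peak at the start. That contrast hangs on the cutoff, since the best rank was 51483 in wt replicate 1 and 49211 in Hox-/- replicate 1.

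Hoxa13, the paralog of Hoxd13 and needed for limb, hindgut and genital development, showed the same direction at its start with a smaller shift. Its start peak stood at 30.0% and 40.1% of the wt lists and at 24.4% and 27.4% of the Hox-/- lists. The shift was 0.42 on the log2 scale of percent ranks, and 686 of the 12835 promoters had a shift as large. The peak numbers were 2 and 4 in wt and 2 and 3 in Hox-/- and overlapped. A weak peak at chr6:52259892-52260318, inside the gene body, was called in wt replicate 2 (rank 170844) and Hox-/- replicate 2 (rank 151072) only, and it alone sets the 792 bp between the edges of the Hox-/- libraries. A peak near 2 kb upstream of the start was at ranks 141023 and 149524 of the Hox-/- lists, at rank 213522 in wt replicate 2 and not listed in wt replicate 1. The difference between the shifts of Hoxa13 and Hoxd13 was not tested.

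**Figure D2:**
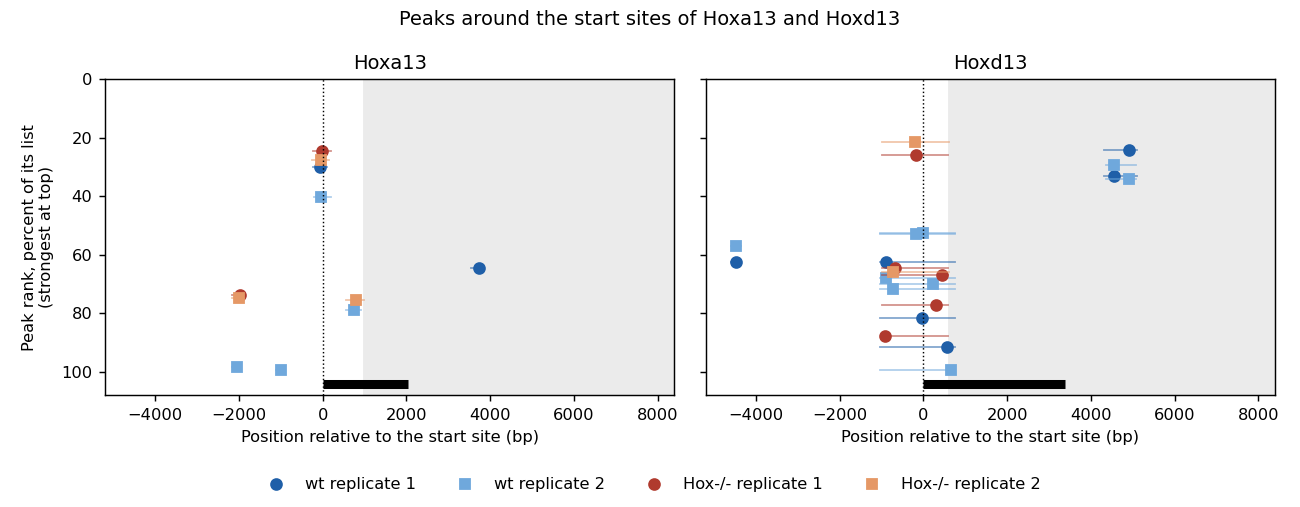
Peaks from 5 kb before the start of Hoxa13 and Hoxd13 to 8 kb after it, by position of the summit in bp (lines show the interval) and by rank as a percent of the library's list, strongest at the top. Grey marks the stretch without Hox-/- peaks and the black bar the gene; at Hoxd13 the highest Hox-/- summits stand at 25.7% and 21.3%, above all wt summits of the same interval, and the wt peaks wholly inside the stretch stand at 24.1% to 34.0%.

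Evx1 and Evx2, which act in spinal interneurons, had their strongest peaks in the gene body. Evx1 (chr6:52313498-52318389) held 4 and 5 peaks in wt and 5 and 5 in Hox-/-, with groups that overlapped, and 3 of 3 regions called in both wt libraries were overlapped by a Hox-/- peak. Its strongest peak, at chr6:52314337-52315709 within the gene, stood at 13% and 14.9% of the wt lists and at 12.1% and 11.6% of the Hox-/- lists. The groups did not overlap, but with rank by fold they did (shift 0.19), and with a 10 kb window the direction reversed (shift -0.38). The peak at the start itself was weak, at 77.0% and 76.3% in wt and at 83.1% and 45.3% in Hox-/-, with groups that overlap.

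Evx2 (chr2:74652989-74661520), the nearest gene wholly outside a stretch, held 7 and 8 peaks in wt and 6 and 5 in Hox-/-, and the groups did not overlap. They overlapped or touched with a window of 1 kb (6 and 5 against 5 and 4) or 10 kb (11 and 15 against 11 and 8), in the gene body (5 and 5 against 5 and 3) and with a −log10 q of at least 5 (5 and 5 against 5 and 4). No peak of any library overlapped the window at its promoter-table start (chr2:74659508-74659807). At the 5' end of the annotated span, a weak region at chr2:74661737-74662071 was called in wt replicate 1 (rank 174540) and Hox-/- replicate 2 (rank 185322). Its strongest peaks, in the gene body, stood at 41.7% and 35.5% of the wt lists and at 46.3% and 45.2% of the Hox-/- lists, below the best peak of every other bordering gene except Hoxa13 in wt replicate 2 (40.1%). By rank they were at 89045 and 77050 in wt and at 88735 and 90565 in Hox-/-, so ranks overlapped while percents did not. Of 3 regions called in both wt libraries, 2 were overlapped by a Hox-/- peak, and the third is the peak shared with the Hoxd13 window. Over 10 kb of window this came to 3.78 and 4.32 peaks in wt and 3.24 and 2.70 in Hox-/-.

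Ttll6 (chr11:96124457-96166182), which encodes a tubulin polyglutamylase of cilia, had the largest difference in listed peaks among the bordering genes. Its window held 20 and 17 peaks in wt and 8 and 10 in Hox-/-, and the groups did not overlap. The mean difference was -9.5 peaks, and 79 of 21883 genes had a difference as low. Among the 5009 genes with a mean of at least 10 wt peaks, the Hox-/- mean was 48.6% of the wt mean at Ttll6, against a median of 89.7%. A share as low was found at 7 of these genes, of which 5 were Hox genes and the others were Ttll6 and Drd2, named after its value was seen.

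The missing Ttll6 peaks were weak. Of 13 regions called in both wt libraries, 10 were overlapped by a Hox-/- peak. The 3 that were not lie in the gene body at chr11:96127870-96128234 (wt ranks 162880 and 141506), chr11:96140299-96141264 (130574 and 117618) and chr11:96141372-96141588 (150682 and 177592). Each is beyond the 100000 strongest peaks in both wt lists. Its 4 regions within the 100000 strongest peaks were listed in all libraries. The best, at chr11:96145431-96146164, was at 8.27% and 10.3% of the wt lists and at 8.92% and 10.2% of the Hox-/- lists, and the peak at the promoter-table start (chr11:96133536-96133835) was at 17.6%, 18.9%, 21.8% and 17.8%, both with groups that overlap. The others did not overlap between the genotypes, in opposite directions: chr11:96124309-96125037, over the 5' end of the annotated span, was at ranks 38501 and 49496 in wt and nearer the top in Hox-/- (33601 and 28762), and chr11:96130478-96131035 was at 24333 and 24758 in wt and farther in Hox-/- (28217 and 31112). When lists were limited to their 100000 strongest peaks, the Ttll6 window held 4 and 4 peaks in wt and 5 and 4 in Hox-/-, and with the 50000 strongest 4 in each. With a −log10 q of at least 5 it held 15 and 13 against 7 and 9. Genome-wide, regions with a worse wt rank beyond the 100000 strongest were overlapped by a Hox-/- peak in 88.5% of cases, and those within it in 99.9%. At Ttll6 it was 6 of 9 (66.7%; exact Clopper-Pearson 95% interval 29.9 to 92.5) and 4 of 4. Such intervals take in counting error alone, since regions of 1 gene are neighbours and share its surroundings.

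Skap1 (chr11:96464570-96759622), an adaptor protein of T cell signalling on the opposite side of HoxB, had peak numbers that overlapped between the genotypes. It held 43 and 46 peaks in wt and 46 and 42 in Hox-/-. Among the 100000 strongest peaks the numbers were 18 and 18 against 20 and 20, which do not overlap. In its window 30 of 30 regions called in both wt libraries had a Hox-/- peak. Its best peaks were at 4.17% and 2.97% of the wt lists and at 2.91% and 3.67% of the Hox-/- lists. Skap1 also held the only regions among the 10 genes that were called in both Hox-/- libraries and in neither wt library. They lie within the gene, at chr11:96644098-96644440, chr11:96648593-96648808 and chr11:96655615-96656013, with Hox-/- ranks between 125417 and 165508. They were 3 of the 32 regions of its window called in both Hox-/- libraries (9.38%), against 2570 of 131926 in the genome (1.95%). Skap1 is singled out because it holds these regions, and no share over all 10 genes is given, so the contrast is description only.

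Skap2 (chr6:51859165-52012549), the paralogous adaptor beside HoxA with expression beyond T cells, held 25 and 27 peaks in wt and 24 and 25 in Hox-/-. The groups met at 25, and they did not overlap, with fewer in Hox-/-, with a window of 1 kb (25 and 27 against 24 and 24) or 10 kb (30 and 31 against 29 and 29), in the gene body (23 and 25 against 22 and 21) and among the 100000 strongest peaks (16 and 15 against 14 and 14). Of its regions, 18 of 19 called in both wt libraries had a Hox-/- peak. The exception, at chr6:51981250-51981657, was at ranks 210458 and 178111, near the end of the wt lists. The start of Skap2 held its strongest peak, at 2.48% and 4.26% of the wt lists and at 4.64% and 7.81% of the Hox-/- lists. The groups did not overlap by percent of the list, with a shift of -0.89 that 233 of the 12835 promoters matched or passed in that direction. By rank, 5308 and 9244 against 8897 and 15640, they overlapped.

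Mtx2 and Calcoco1 had their strongest peaks at their start sites. Mtx2 (chr2:74825812-74876748), a subunit of the mitochondrial outer membrane import machinery, held 2 peaks in each library, both summits of a single interval at its start. That interval stood at 8.37% and 8.07% of the wt lists and at 7.31% and 9.35% of the Hox-/- lists, and the groups overlapped. Calcoco1 (chr15:102706777-102722178), a coiled-coil coactivator and autophagy receptor, had the strongest peak of the bordering genes, at ranks 493 and 715 in wt and 932 and 824 in Hox-/-. In percent these were 0.231% and 0.330% against 0.486% and 0.412%. Both Hox-/- libraries were farther from the top than both wt libraries, with a shift of -0.70 that 572 promoters matched or passed. When peaks were ranked by fold the shift was -0.28 and the groups overlapped. Its peak numbers of 6 and 4 in wt and 6 and 5 in Hox-/- overlapped.

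Smug1 (chr15:103153290-103168939), a uracil-DNA glycosylase of base excision repair, was the only bordering gene with more peaks in both Hox-/- libraries. Its window held 7 and 6 peaks in wt and 9 and 8 in Hox-/-. The mean difference was 2.0, reached by 338 of 21883 genes. All 5 of its regions called in both wt libraries had a Hox-/- peak, and the regions called in Hox-/- alone were weak, at rank 181551 in replicate 2 and 190020 in replicate 1. With a −log10 q of at least 5 the numbers were 6 and 6 against 6 and 7, and they overlapped. Among the 100000 strongest peaks they were 4 and 4 against 6 and 5, and did not. The peak at its promoter-table start (chr15:103163235-103163534) was at 4.50%, 4.52%, 4.98% and 3.80% of the lists in the order wt 1, wt 2, Hox-/- 1 and Hox-/- 2, and no peak was listed at the 5' end of the annotated span.

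**Figure D3:**
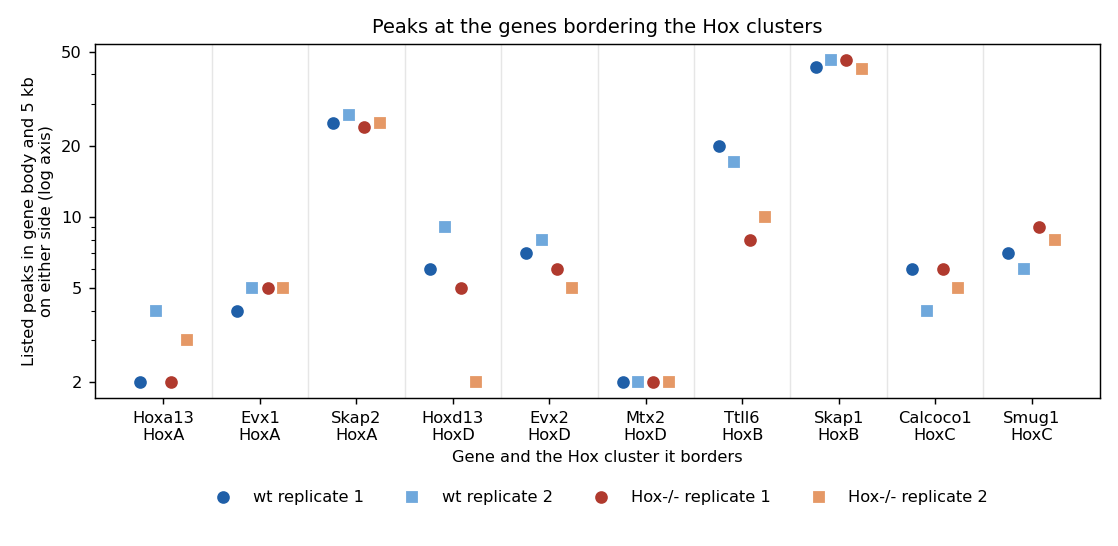
Number of listed peaks (log axis) in the body of each bordering gene and 5 kb on either side, with 1 point for each library. Points of wt (blue) and Hox-/- (red and orange) do not overlap at Hoxd13 (through wt peaks inside the emptied stretch), Evx2 and Ttll6, where wt is higher, and at Smug1, where Hox-/- is higher, with the widest gap at Ttll6 (20 and 17 against 8 and 10).

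Over all 10 genes, 3 had fewer peaks in both Hox-/- libraries than in both wt libraries (Hoxd13, Evx2 and Ttll6). With peaks inside the stretches left out it was 2, Evx2 and Ttll6. Having fewer peaks in both held for 19.9% of the 18598 protein-coding genes with any peak, so either count is near the background. More peaks in both Hox-/- libraries were found at 1 of 10 (Smug1), against 3.49% of genes, and a count of 1 does not set the group apart. At the other 6 the groups overlapped. Summed over the windows with each peak counted once, there were 124.0 ± 4.24 peaks in wt and 110.0 ± 4.24 in Hox-/- (mean ± SD, n = 2). The difference of -14.00 had a two-sided exact permutation p of 0.33, the smallest that 2 against 2 libraries allow. When lists were limited to their 100000 strongest peaks it was 1.000, so the lower total lies in the weaker peaks, where the Hox-/- lists are also shorter, and the part of list length in it was not tested.

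By the rank of the strongest peak, Hoxa13, Evx1 and Hoxd13 (3 of 10) were nearer the top in both Hox-/- libraries, against 20.6% of the 17944 genes with a peak in all 4 libraries. Calcoco1 (1 of 10) was farther from the top in both, against 19.1%. Because the Hox-/- lists are shorter, the tally differs by percent of the list. Hoxa13 and Evx1 (2 of 10) were then nearer the top, against 11.4% of genes, and Skap2, Evx2 and Calcoco1 (3 of 10) were farther, against 30.6%. On either scale the shares are near the background. The median shift was 0.14 for the members and 0.01 for all genes, on the log2 scale of ranks with positive values nearer the top in Hox-/-. By percent of the list, Calcoco1 came first, from 0.231% to 0.486%, and was clear of all others. Skap1, Skap2, Smug1, Mtx2 and Ttll6 followed, each with a range that overlaps that of a neighbour in the order, and Evx1 stood apart at 11.6% to 14.9%. Hoxd13 and Hoxa13 overlapped each other, and Evx2 overlapped Hoxa13 at the end of the order.

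**Figure D4:**
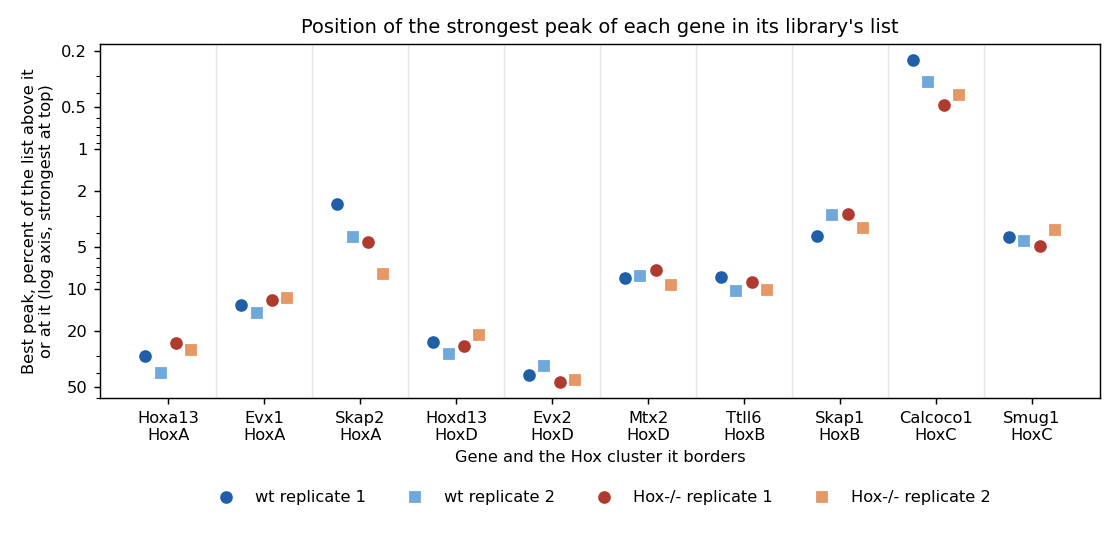
Position of the strongest peak in each gene window as a percent of the library's list (log axis, strongest at the top), with 1 point for each library. Calcoco1 stands at 0.231% to 0.486% in all libraries, and Hoxa13, Hoxd13 and Evx2, the homeobox genes nearest the stretches, stand lowest, between 21.3% and 46.3%.

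The share of wt regions with a Hox-/- peak was lower on the group 13 side when the clusters were taken as a sum, though the intervals of the sides overlap. On that side, with Hoxa13, Evx1, Hoxd13, Evx2, Ttll6 and Calcoco1, 20 of 25 regions called in both wt libraries did so (80.0%, exact Clopper-Pearson 95% interval 59.3 to 93.2). On the other side, with Skap2, Mtx2, Skap1 and Smug1, it was 54 of 55 (98.2%, 90.3 to 99.9). The difference of -18.2 percentage points rests on 5 regions, of which 3 are at Ttll6, 1 is inside the HoxD stretch by definition and 1 lies between Evx2 and Hoxd13. Leaving out the stretch gave 20 of 24 (83.3%) and leaving out Ttll6 gave 10 of 12 (83.3%), both chosen after the values were seen. Over all 10 genes 74 of 80 regions (92.5%, 84.4 to 97.2) had a Hox-/- peak, close to the 94.6% of 146769 regions in the genome. When lists were limited to their 50000 strongest peaks, the difference between the sides was 4.3 points in the opposite direction.

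**Figure D5:**
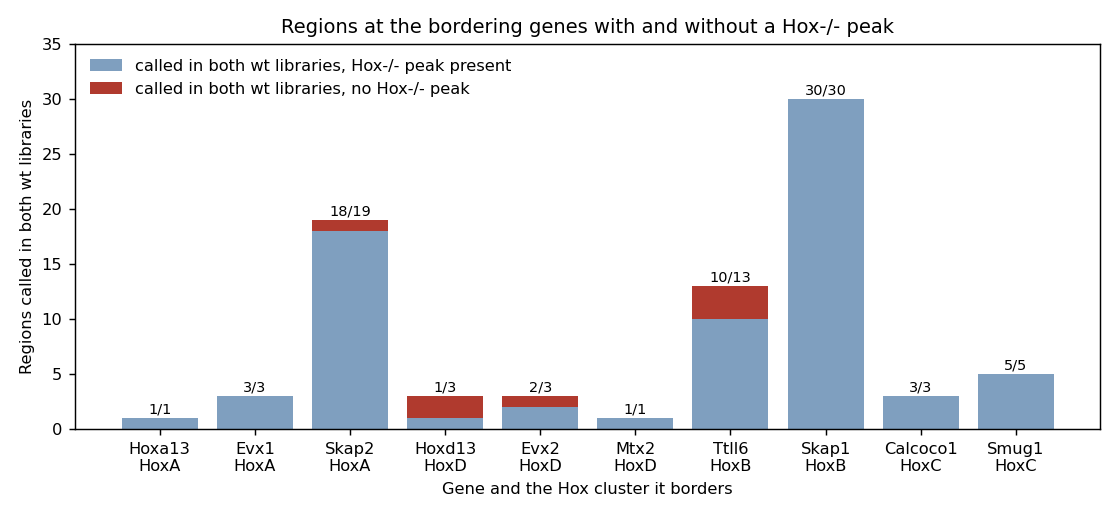
Regions called in both wt libraries at each bordering gene, split into those with a Hox-/- peak (blue) and those without (red), with the first number over the total above each bar. Red appears at Skap2 (1 region), Hoxd13 (2), Evx2 (1, the same region as 1 of those at Hoxd13) and Ttll6 (3), and 6 of the genes have none.

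Cluster by cluster, the regions without a Hox-/- peak fell on different sides. At HoxB all the regions without a Hox-/- peak were on the Ttll6 side (10 of 13 against 30 of 30 at Skap1), and at HoxC both Calcoco1 (3 of 3) and Smug1 (5 of 5) were complete. At HoxA the exception was at Skap2 (18 of 19), while Hoxa13 (1 of 1) and Evx1 (3 of 3) were complete. At HoxD they were at Hoxd13 and Evx2 and not at Mtx2 (1 of 1). Of 30 genes farther out, listed as neighbours of the bordering genes, 7 had fewer in both Hox-/- libraries, 0 had more and 23 overlapped, a share near the 19.9% of all genes. The 7 were Hibadh, Jazf1, Calcoco2, Cbx1, Nfe2l1, Copz1 and Zfp385a. Calcoco2, the neighbour of Ttll6, had 10 and 6 peaks in wt against 4 and 5.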

How the data were processed

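ATAC-seq was done on 2 wt and 2 Hox-/- libraries of mouse ES cells, grouped by the genotype label. Per the submitters' processing notes, cutadapt 4.8, Bowtie2 2.5.0, Picard 2.18.2, bedtools 2.30.0, MACS2 2.2.9.1 and deepTools 3.5.4 were used with mm10; parameters, duplicate handling and read shifting are not given in the sources used here. The authors deposited 1 peak list per library with, per peak, a fold over background (a ratio), −log10 p, −log10 q and a score, which was not used here. Several lines can share an interval with different summits, and each counted as a peak.

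Lists were read with pandas 2.3.3 (Python 3.11.15, numpy 2.4.6, scipy 1.17.1). Regions are peaks of all 4 libraries merged at an overlap of at least 1 bp. Genes and promoters are RefSeq GRCm38.p6; 9 of 10 members matched a promoter, all but Skap1. The counting was tested on simulated data. The protein comparison planned for the paralog pairs was not made. Depth is unknown, so peak lists of different length limit rank comparisons. All 10 members are named, and other genes come from a list of neighbours. The members and lists were chosen with earlier results of these data known. Alternatives were the window (1 kb, 10 kb, gene body), the 100000 or 50000 strongest peaks, −log10 q of at least 5, merged lines, 50% coverage, rank by fold, leaving out each library, and a replicate block. Added after seeing the data were peaks outside the stretches, rank as percent of the list and leaving out Ttll6.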

Additional observations from a re-analysis of the deposited data

How the results depend on the processing

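Of 68 alternative values of summary results, 54 stayed within the limits set for them, 11 moved and 3 reversed. The difference in summed peaks (-14.00) was 1.000 with the 100000 strongest peaks and 1.5 with the 50000 strongest, and the difference between the sides (-18.2 points) became 4.3. The number of genes whose counts did not overlap (4) was 2 for the gene body (Ttll6, and Skap2 in place of Hoxd13, Evx2 and Smug1), 2 with a −log10 q of at least 5 and 1 with the 50000 strongest. The stretches (518 kb in all) summed to 519 kb with the 100000 strongest. Leaving out each library in turn gave -17.00 to -11.00 for the summed difference, 5 to 7 genes without overlap by number and 6 to 8 by best rank, 82.5% to 88.8% of regions with a Hox-/- peak (87.5% to 90.6% in the genome, against 94.6% with all libraries), -22.5 to -15.8 points between the sides and 518 to 519 kb; with 1 library left in a genotype, groups overlap less by construction. No share over all genes is given for these settings, so the counts of genes without overlap do not set the members apart. Leaving out peaks inside the stretches, leaving out Ttll6 and ranking by percent of the list were chosen after seeing the data. The summed difference was -11.50 outside the stretches. Of 100 single-gene rank shifts, 91 stayed within the spread between replicates. The sign changed in 11, at 6 genes: Evx1 (0.36 to -0.38), Evx2 (-0.11 to 0.85) and Ttll6 (0.09 to -0.17) with a 10 kb window, Skap1 (0.24 to -0.77) and Smug1 (0.15 to -0.49) with rank by fold, and shifts of Mtx2, Ttll6 and Smug1 that ended between -0.08 and -0.01. Of these only Evx1 had libraries that did not overlap in the main setting.

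The replicate numbers do not pair the libraries: differences between replicates of the genotypes correlated at -0.00805 over 17944 genes for best rank. With the replicate block the difference in summed peaks was -14.00 and 5 genes had the same direction in both pairs. The share of all genes with the same direction in both pairs is not given, so this count does not set the members apart. Peaks below the lists' limit of 1.30 in −log10 q cannot be seen.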

Other observations

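Several other edges of the stretches lie at Hox genes that are not among the bordering genes, and their edge peaks were present in wt as well. At Hoxc13, the last gene of HoxC, the edge peak stood at 0.778% and 1.65% of the wt lists and at 9.0% and 8.90% of the Hox-/- lists, and the wt intervals reached 166 and 265 bp past the edge. At Hoxb13 the edge peak stood at 1.69% and 2.26% in wt and at 1.07% and 1.04% in Hox-/-, the opposite order, and no wt interval crossed the edge. The HoxB edge beside Hoxb1 (5.16% and 4.33% against 5.24% and 5.58%) also did not overlap by percent of the list. By rank, 11037 and 9393 against 10054 and 11176, it overlapped. The HoxC edge beside Hoxc4 (18.0% and 11.6% against 10.2% and 16.6%) overlapped. At the HoxD edge beside Hoxd1 it was 45.5% and 41.2% against 37.8% and 40.0%. These values were given as description, and no explanation of them was tested.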
